A study of Mus musculus with 3 samples.

Results

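The genes described here encode the cytotoxic granule of killer lymphocytes: the granzymes Gzma, Gzmb, Gzmc, Gzmk and Gzmm, the pore-forming perforin (Prf1), the granule membrane protein Nkg7, the granule proteoglycan serglycin (Srgn), the granule-associated cathepsin W (Ctsw) and the death ligand Fasl. They were found by gene name in the array annotation, and all 10 were present, as 12 of the 44170 transcripts and 10 of the 24171 genes. RNA came from 3 sorted spleen populations of wild-type C57/BL6 mice aged 8 weeks: natural killer B (NKB) cells, natural killer (NK) cells and B cells. The study set NKB cells against each of the others, with 1 single-colour array for each population. Each value therefore stands on a single array, with no replicate spread to test a difference against, and precision is limited by this number. Nothing in the labels says how many mice gave each RNA or which surface markers set the gates, and the sorting text shared by the samples names hematopoietic stem cells.

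Cytotoxic lymphocytes store granzymes and perforin in secretory lysosomes, bound to a serglycin matrix. On contact with a target cell the granules fuse with the plasma membrane, perforin opens the target membrane, and granzymes enter and cut substrates that lead to cell death. Fas ligand acts apart from perforin, by binding the death receptor Fas. Resting mouse NK cells are known to hold abundant Gzmb and Prf1 mRNA with little of the protein, and naive B cells are not known as users of this pathway.

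In build MM9, which the array annotation uses, Gzma lies at chr13:113884034-113891189 and Gzmk 70.9 kb from it at chr13:113962083-113971105. Gzmc lies at chr14:56850300-56853443 and Gzmb 24.2 kb further at chr14:56877672-56881094. Prf1 (chr10:60760583-60767011), Srgn (chr10:61957174-61970482) and Gzmm (chr10:79156502-79158005) share a chromosome. Ctsw is at chr19:5465342-5468487, Nkg7 at chr7:50692442-50693619 and Fasl at chr1:163710819-163718626. Each position is that of a whole transcript, so it spans exons and introns. Nkg7 and Fasl each had a pair of overlapping transcripts on the array and every other member had 1, each read by 3 probes.

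The 250 bases before the annotated start of 5 members are shown because these genes share a function and differ in level between the arrays: Gzma, Gzmb, Prf1 and Nkg7 were bright on the NK array, and Gzmc was dim on all 3. The sequences are RefSeq's on build GRCm38.p6, given 5′ to 3′ on the gene's own strand. Capitals mark the Runx word TGTGGT and the T-box word TCACAC, read on either strand. Runx and T-box factors are known regulators of cytotoxic genes.
Gzma: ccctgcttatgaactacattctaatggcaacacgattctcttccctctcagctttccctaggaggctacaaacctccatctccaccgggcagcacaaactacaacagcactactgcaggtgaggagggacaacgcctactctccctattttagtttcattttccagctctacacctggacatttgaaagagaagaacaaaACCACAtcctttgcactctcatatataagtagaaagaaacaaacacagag
Gzmb: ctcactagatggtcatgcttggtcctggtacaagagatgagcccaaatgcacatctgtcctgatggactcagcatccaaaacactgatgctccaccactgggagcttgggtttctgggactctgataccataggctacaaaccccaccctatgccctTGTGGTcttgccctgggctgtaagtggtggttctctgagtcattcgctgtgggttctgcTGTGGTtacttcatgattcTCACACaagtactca
Prf1: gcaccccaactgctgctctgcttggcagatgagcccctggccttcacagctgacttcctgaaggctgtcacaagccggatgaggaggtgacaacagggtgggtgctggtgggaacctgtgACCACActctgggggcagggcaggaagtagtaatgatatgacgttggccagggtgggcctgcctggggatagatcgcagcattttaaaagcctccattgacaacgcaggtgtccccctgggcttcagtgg
Nkg7: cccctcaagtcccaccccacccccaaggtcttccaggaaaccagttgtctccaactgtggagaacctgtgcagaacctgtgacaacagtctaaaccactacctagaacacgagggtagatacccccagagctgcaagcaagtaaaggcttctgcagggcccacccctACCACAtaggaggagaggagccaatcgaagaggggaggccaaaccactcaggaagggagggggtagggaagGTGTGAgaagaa
Gzmc: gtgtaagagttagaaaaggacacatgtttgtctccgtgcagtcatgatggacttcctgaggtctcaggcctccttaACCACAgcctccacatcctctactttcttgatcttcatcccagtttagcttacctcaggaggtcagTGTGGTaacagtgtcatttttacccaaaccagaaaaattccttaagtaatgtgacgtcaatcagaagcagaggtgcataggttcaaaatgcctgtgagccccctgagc
The windows are chr13:113100982-113101231 (minus strand) for Gzma, chr14:56262335-56262584 (minus) for Gzmb, chr10:61297586-61297835 (plus) for Prf1, chr7:43436888-43437137 (plus) for Nkg7 and chr14:56234658-56234907 (minus) for Gzmc. The table held 11 starts for 9 of the 10 members, all but Ctsw. The Runx word was in 7 of these 11 windows and in 14.0% of all 32851 windows of the same length. The T-box word was in 4 of 11 and in 12.3% of all windows. The AP-1 word TGANTCA was in 1 of 11, that of Gzmb, against 6.75% of all windows, and the CRE half-site TGACG in 4 of 11 against 17.8%. Marked words do not overlap each other in the printed windows. Gzmc, dim on every array, held 2 Runx words, and Fasl, bright in NK, held neither the Runx nor the T-box word, so the words did not separate bright from dim members. A match is a description of the letters only.

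Intensities are RMA values on a linear scale. Each array's detection level, the 95th percentile over 924 genes of olfactory and vomeronasal receptors, was 135 on the NKB, 137 on the NK and 149 on the B array. Values under it were raised to it before differences were taken, and folds computed from a raised value are bounds, written "at least". Called genes are those at least 2-fold apart between the arrays compared. As a yardstick of noise, 95% of the olfactory and vomeronasal genes stayed within a log2 difference of 1.77 for NKB minus B, 1.81 for NKB minus NK and 1.36 for NK minus B, taken without the level; these are dim genes, and bright genes have no such yardstick here. The labels matched their lineage markers. Of 10 B cell markers 10 were detected on NKB, 1 on NK and 10 on B, with summed intensities of 27451, 737 and 27198. Of 11 NK markers that are not described here as granule genes, 9 were detected on NKB, 11 on NK and 1 on B, with sums of 12607, 46780.4 and 796, to which Ccl5 gave 8916 on NKB and 30430 on NK.

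Of the 10 granule genes, 5 were detected on the NKB array, 7 on the NK array and 1, Srgn, on the B array. NKB cells carried Gzma, Ctsw, Prf1 and Gzmb above the detection level, where B cells were under it, while Nkg7 and Fasl were under it in NKB too. Against B, 2 of the 10 were called higher in NKB (Gzma and Ctsw), where 4.56% of all genes were, and none lower, where 4.75% were. Against NK, 6 of 10 were called lower in NKB (Gzma, Gzmb, Prf1, Nkg7, Ctsw and Fasl), where 5.10% of all genes were, and none higher, where 5.97% were. In NK against B the same 6 were called higher, where 2.22% of all genes were, and none lower, where 2.97% were. With the arrays shifted to equal medians this last split of all genes was 726 higher and 465 lower, against 537 and 717, and the same 6 members were called. The median log2 difference of the members was 0.25 for NKB minus B, -1.53 for NKB minus NK and 2.58 for NK minus B. Each was taken over values that include raised ones. Over all genes these medians were -0.14, -0.02 and -0.12, which are the offsets between the detection levels. Without the level the medians of the members were 0.61, -2.05 and 4.23, and those over all genes 0.01, 0.02 and -0.03. The comparisons share arrays, so they are not independent of each other. With bulk RNA, fewer cells of a type and less RNA per cell cannot be told apart.

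**Figure D1:**
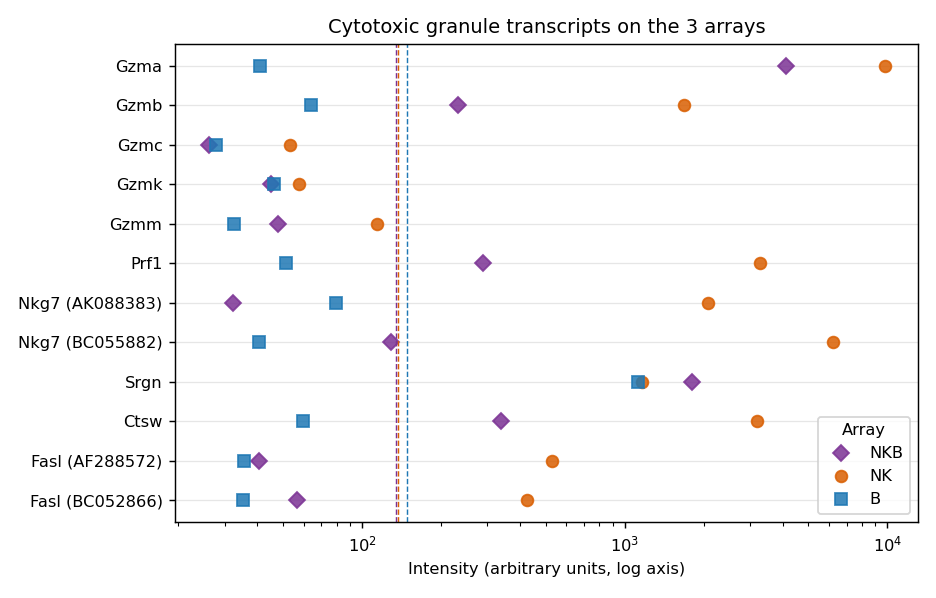
Intensity of the 12 transcripts of the 10 granule genes (rows) on the NKB, NK and B arrays (1 point each, log axis, arbitrary units); dashed lines mark each array's detection level of 135, 137 and 149. Gzma at 4098 and Srgn at 1798 are far right of the lines on NKB, and Srgn alone, at 1121, is right of the line on B.

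Among the granzymes, Gzma, a tryptase that cuts after basic residues, had an intensity of 4098 in NKB, 9758 in NK and 40.7 in B cells. NKB exceeded B at least 27.5-fold (log2 difference 4.78) and was 2.38-fold lower than NK (-1.25). The difference from NK was within the range that dim genes showed, and that from B was outside it. NK exceeded B at least 65.5-fold. The authors' deposited table gives a ratio of 101 for NKB over B, taken without a detection level.

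Gzmb, which cuts after aspartate and activates caspases and Bid, read 233 on NKB, 1684 on NK and 63.7 on B. It was 7.24-fold lower in NKB than in NK (log2 difference -2.86), and NK exceeded B at least 11.3-fold. Against the B level NKB was at least 1.56-fold higher, short of a call, because B was dim. Without the level the log2 difference was 1.87, a size that 4.22% of the olfactory and vomeronasal genes matched or passed in either direction. The authors' deposited table lists it at 3.65-fold. At a level set to the 99th percentile both arrays were under it, and the difference was -0.83, the offset between the levels.

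Gzmc, a close paralog of Gzmb, read 26.1 on NKB, 53.4 on NK and 27.9 on B. Gzmk, a tryptase and neighbour of Gzma, read 45.1, 57.4 and 46.3. Gzmm, which cuts after methionine or leucine, read 47.7, 114 and 32.7. All were under the detection level on every array, so no fold is given. Without the level, the log2 difference of Gzmm for NK minus B was 1.80. That is a size that 1.95% of the olfactory and vomeronasal genes matched or passed in either direction. The other differences of these genes, taken without the level, were within the range that dim genes showed. The pairs that are neighbours in the genome therefore split: Gzma and Gzmb were bright on the NK array, and Gzmk and Gzmc were not above background.

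Perforin, the pore former that granzymes depend on for entry, was measured by Prf1 at 288 on NKB, 3275 on NK and 51.5 on B. It was 11.4-fold lower in NKB than in NK (log2 difference -3.51), and NK exceeded B at least 22.0-fold. NKB was at least 1.93-fold higher than B, just short of a call. Without the level the log2 difference was 2.48, a size that 1.30% of the olfactory and vomeronasal genes matched or passed in either direction. Scaled to equal array medians, the bound was a log2 difference of 1.04 and counted as a call. At the 99th percentile the log2 difference was -0.53, because B was raised to a level above the NKB reading. That value is no bound.

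Nkg7, a membrane protein of the granule that promotes its release, averaged 64.5 on NKB, 3584 on NK and 56.7 on B over its pair of transcripts. It was at least 26.5-fold lower in NKB than in NK and at least 24.1-fold higher in NK than in B. Transcript AK088383 read 32.2 on NKB, 2076 on NK and 79.3 on B. Transcript BC055882 read 129 on NKB, 6187 on NK and 40.5 on B. Both were far brighter in NK than in NKB, and they went opposite ways between NKB and B, with every value of that pair under its detection level. The authors' deposited table lists only BC055882, as 3.18-fold higher in NKB than in B and 48.0-fold lower than in NK.

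Srgn, the proteoglycan core on which many blood cells pack granule proteins, read 1798 on NKB, 1163 on NK and 1121 on B. It was the one member detected on all 3 arrays and differed less than 2-fold in each comparison, by 1.60-fold (NKB over B), 1.55-fold (NKB over NK) and 1.04-fold (NK over B). Ctsw, a papain-like cathepsin of NK and cytotoxic T cells, read 339 on NKB, 3184 on NK and 59.4 on B. NKB exceeded B at least 2.28-fold and was 9.38-fold lower than NK, and NK exceeded B at least 21.4-fold. Without the level the log2 difference of NKB minus B was 2.51, a size that 1.30% of the olfactory and vomeronasal genes reached. Its call against B is lost when the level is moved to the 99th percentile. There B was raised above the NKB reading and the log2 difference was -0.29.

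Fasl averaged 47.9 on NKB, 474 on NK and 35.4 on B. It was at least 3.50-fold lower in NKB than in NK and at least 3.18-fold higher in NK than in B, a call lost when the level is moved to the 99th percentile (log2 difference 0.19). Its transcripts read 40.5 and 56.7 on NKB, 529 and 424 on NK, and 35.6 and 35.3 on B, so each of the pair gave the same order of NK over the other populations. Fasl is in none of the authors' deposited tables, which hold a transcript only if at least 2 of the 3 arrays reached an intensity of 100, and only NK did so.

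**Figure D2:**
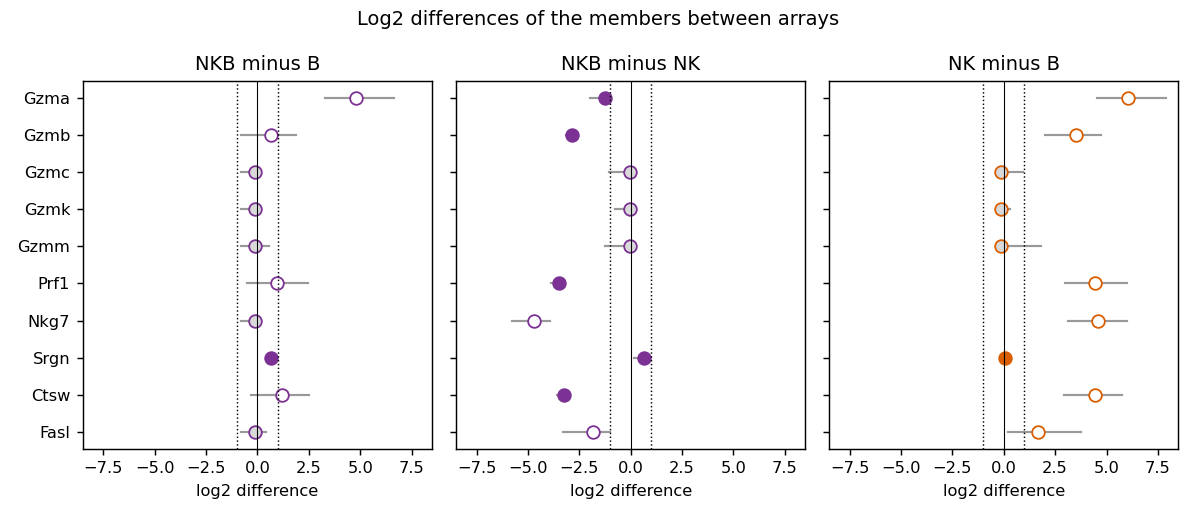
Log2 difference of each member (rows) in the 3 comparisons; filled points are measured on both arrays, open points are lower bounds in size, grey points have both arrays under the detection level, grey bars span the settings tried and dotted lines mark 2-fold. Nkg7 at -4.73, Prf1 at -3.51 and Ctsw at -3.23 lie farthest left in NKB minus NK, and Gzma at 4.78 stands alone at the right in NKB minus B.

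The share of the NK level found in NKB differed from member to member. As deposited, NKB had 42.0% of the NK intensity for Gzma, 13.8% for Gzmb, 10.7% for Ctsw, 10.1% for Fasl, 8.78% for Prf1 and 1.80% for Nkg7, while Srgn stood at 155%. The values for Nkg7 and Fasl rest on NKB intensities under the detection level. Over the 11 NK markers the share ran from 2.95% for Il2rb, a chain of the interleukin-2 and interleukin-15 receptors, to 95.5% for the activating receptor Ncr1, with a median of 22.5%. Ncr1 read 294 on NKB, 308 on NK and 159 on B, and was not called in NK against B. Eomes, whose share is the median, and Klrk1 were under the detection level on NKB. Without replicates it was not tested whether the spread among members exceeds that between arrays.

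The genes nearest to Gzma over the 2 log2 differences (NKB minus B and NKB minus NK), among 3862 genes detected on both NKB and NK, were Ccl3, Ccl5, Fcer1g, C1qc and Klra13-ps. The chemokine genes Ccl3 and Ccl5 lay at distances of 1.11 and 1.24. The receptor adaptor Fcer1g, the complement gene C1qc and Klra13-ps lay at 1.85, 2.18 and 2.20. The symbol Klra13-ps marks a Ly49 pseudogene, a close paralog of other Ly49 genes. B was under the level for Gzma and for all 5, so these distances depend on the level. On the values as deposited, an alternative chosen after seeing the data, Ccl5 was nearest (0.63), then Fcer1g (1.58), C1qa (2.63), Ccl3 (2.66) and AW112010 (2.76), and 3 of the 5 genes were shared. Ccl5 read 8916 on NKB, 30430 on NK and 114 on B, and C1qc, a macrophage gene, read 1972, 1247 and 92.2. Of the members, Ctsw was the nearest to Gzma, with 227 other genes nearer, again with the level.

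**Figure D3:**
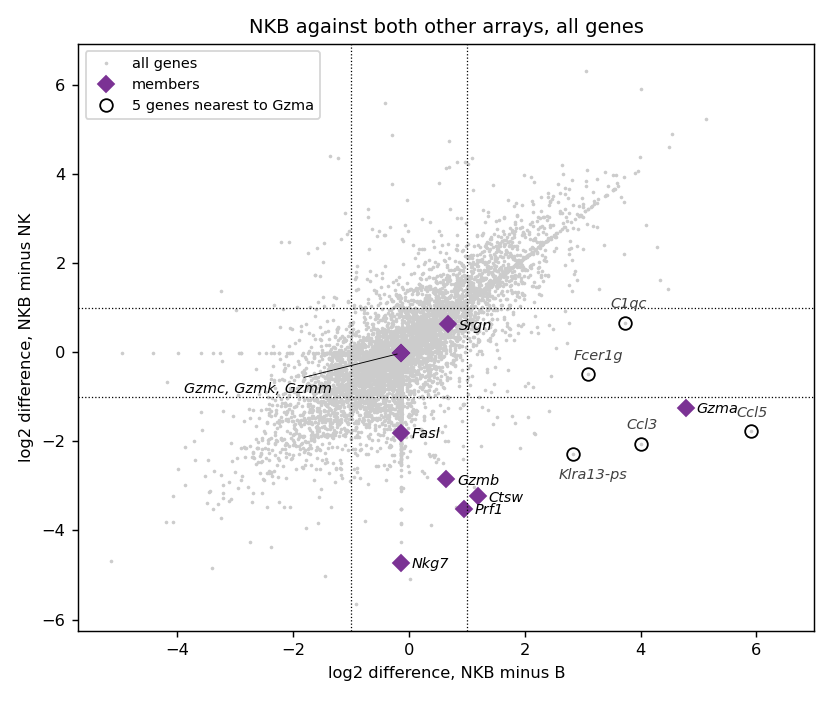
Log2 difference NKB minus B (horizontal) against NKB minus NK (vertical) for all 24171 genes (grey), the 10 members (diamonds) and the 5 genes nearest to Gzma (circles); both axes contain the NKB array, which by itself tilts the cloud. Gzma lies at 4.78 and -1.25, and Gzmb at 0.64 and -2.86, Prf1 at 0.95 and -3.51, Ctsw at 1.19 and -3.23 and Nkg7 at -0.14 and -4.73.

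Genes of other blood cells that can hold granule proteins also differed between the arrays. Of 10 monocyte and macrophage markers, 8 were detected on NKB, 9 on NK and 1 on B, with summed intensities of 8298, 7031 and 1629. Of these markers 7 were called higher in NKB than in B, where 4.56% of all genes were. The T cell list had 3 of 9 detected on NKB, 3 on NK and 2 on B, with sums of 1259, 3501 and 803. The T cell genes Cd4, Cd8a and Cd3d were under the level on all 3 arrays. Those detected on NKB were Cd3e (146 on NKB, 534 on NK and 200 on B), Cd3g (214, 224 and 38.2) and Thy1 (528, 2260 and 222), and Thy1 was called higher in NKB than in B. Of 10 mast cell and basophil genes 2 were detected on NKB (Ms4a2 and Cma1), 2 on NK and 1 on B, with sums of 958, 1220 and 833. Ms4a2 read 371 on NKB, 171 on NK and 77.1 on B. It was called higher in NKB than in B (at least 2.49-fold) and than in NK (2.18-fold). Cpa3 and Fcer1a were under the level on all 3. Of 10 neutrophil genes 0 were detected on NKB, 1 on NK and 0 on B (sums 505, 695 and 512), and of 7 platelet genes none was detected on any array (sums 405, 388 and 436). Of 7 erythroid genes, 3 were detected on NKB, 4 on NK and 3 on B, with sums of 9489, 5956 and 1303. The part of these cells in the granule genes' values was not tested.

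The remaining genes of the granzyme B locus on the array were 4 granzymes and 6 mast cell type proteases, of which 2 were detected on each array. In NKB against B none of the 10 was called, and in NKB against NK 1 was lower and none higher. The lower one was Cma1, a mast cell chymase, at 155 on NKB, 577 on NK and 73.4 on B. It was also the 1 gene of this list called higher in NK than in B (at least 3.87-fold), where 2.22% of all genes were. Gzme, Gzmf, Gzmg and Gzmn were under the detection level on all 3 arrays. Mcpt1, another mast cell protease, read 156 on NKB, 248 on NK and 167 on B, and cathepsin G (Ctsg) read 70.3, 112 and 267. Of the 8 neighbours of Gzma and Gzmk none was called in any comparison, with 1 detected on NKB, 1 on NK and 0 on B. Over all genes the share called in a single direction ran from 2.22% to 5.97%. The brightest of these neighbours on NKB were the sorting nexin gene Snx18 (263 on NKB, 279 on NK and 88.7 on B) and Esm1 (109, 40.7 and 87.2). At the granzyme M locus the neutrophil proteases Elane and Prtn3 stayed under the level on all arrays, at 34.8 and 40.5 on NKB.

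Genes that activate or restrain granzymes went in both directions against NK. Of 10 on the array, none was called in NKB against B, where 4.56% of all genes were higher and 4.75% lower. Against NK 3 were higher in NKB and 2 were lower, where 5.97% and 5.10% of all genes were. The medians were -0.14 and 0.17, and those over all genes -0.14 and -0.02. All but 0.17 are the offsets between the detection levels and do not measure a shift. Cathepsin C (Ctsc), which removes the dipeptide that keeps granzymes inactive, read 544 on NKB, 252 on NK and 292 on B, and was 2.16-fold higher in NKB than in NK. Cathepsin H (Ctsh), an aminopeptidase able to do the same for granzyme B, read 1240.5 on NKB, 199 on NK and 1641 on B, a 6.24-fold excess over NK. Its transcripts disagreed between NKB and B, with log2 differences of 1.07 and -1.87. The protease inhibitor Serpinb1a read 364 on NKB, 66.4 on NK and 680 on B, at least 2.65-fold above NK.

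An inhibitor of cathepsin C and one of granzyme B were lower in NKB than in NK. Cystatin F (Cst7), which inhibits cathepsin C, read 103 on NKB, 778 on NK and 172 on B, at least 5.75-fold lower in NKB than in NK. Serpinb9, the granzyme B inhibitor that protects killer cells from their own enzyme, read 41.6 on NKB, 399.5 on NK and 56.1 on B, at least 2.95-fold lower. Cathepsin L (Ctsl) read 249 on NKB, 50.1 on NK and 32.1 on B, short of a call because NK and B were under the level. Without the level its log2 differences were 2.95 for NKB minus B and 2.31 for NKB minus NK. Those are sizes that 0.54% and 2.27% of the olfactory and vomeronasal genes matched or passed in either direction. The mannose 6-phosphate receptor gene M6pr, which sorts granzymes to lysosomes, read 650 on NKB, 509 on NK and 398 on B, short of a call.

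**Figure D4:**
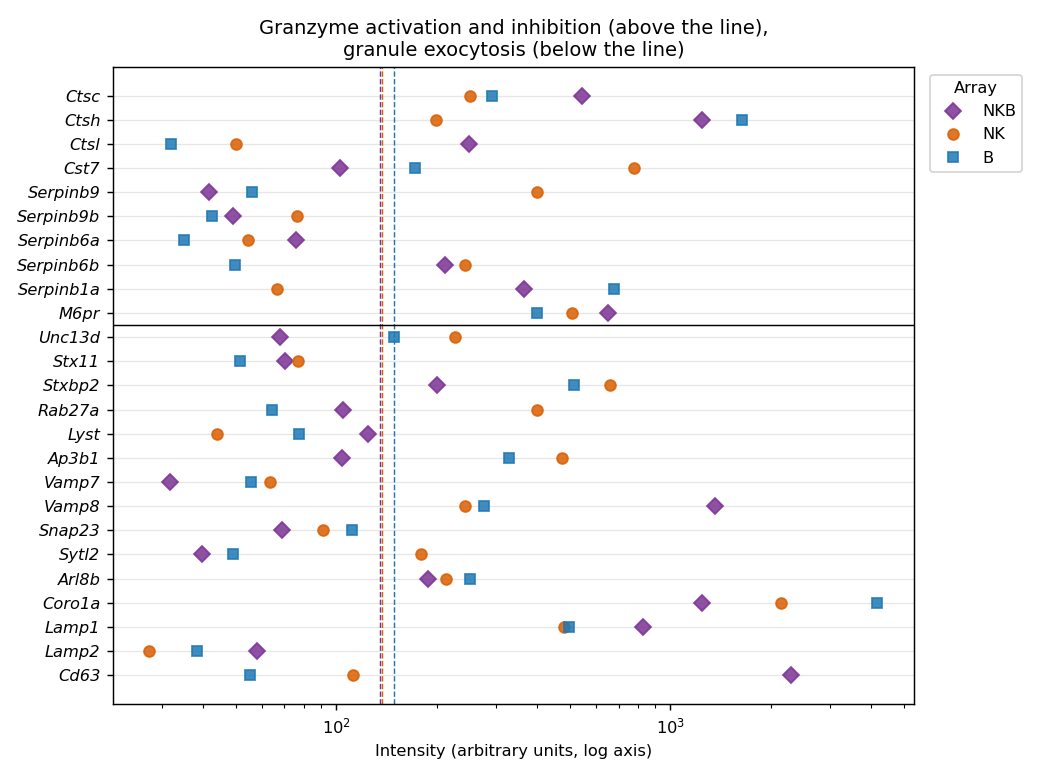
Intensity of the genes of granzyme activation and inhibition (above the line) and of granule exocytosis (below the line) on the NKB, NK and B arrays (log axis, arbitrary units; dashed lines are the detection levels of 135, 137 and 149). Cd63 at 2299 and Vamp8 at 1364 on NKB lie right of both other arrays, and Stxbp2 at 200 and Ap3b1 at 104 lie left of both.

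In the machinery of granule exocytosis, 2 of 15 genes (Cd63 and Vamp8) were called higher in NKB against B and 3 (Stxbp2, Ap3b1 and Coro1a) lower. Of all genes 4.56% were higher and 4.75% lower. Against NK the same 2 were higher and 3 (Stxbp2, Ap3b1 and Rab27a) lower, where 5.97% and 5.10% of all genes were. The medians of -0.14 and -0.02 are the offsets between the detection levels, as they are over all genes. They do not measure whether the list shifted. The tetraspanin gene Cd63, a membrane protein of lysosomes and granules, read 2299 on NKB, 112 on NK and 55.0 on B. NKB exceeded NK at least 16.8-fold and B at least 15.4-fold. Vamp8, a SNARE of lysosome-related vesicles, read 1364 on NKB, 244 on NK and 277 on B, 5.60-fold above NK and 4.93-fold above B. Both genes are expressed by many cell types. Neither was called in NK against B, where Cd63 was under the level on both arrays. The summed intensity of the macrophage markers was 8298 on NKB, 7031 on NK and 1629 on B. Against NK, where the sum was 7031, C1qb (1951 on NKB and 947 on NK), Vcam1 (646 and 175) and Ctss (1118 and 328) were called higher in NKB, and Lyz2 (671 and 2387) and Itgam (88.7 and 348) lower. Their part in the Cd63 and Vamp8 values was not tested. Each was read by a single transcript.

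Stxbp2, the Munc18 protein needed for granule fusion, read 200 on NKB, 662 on NK and 514 on B, 3.31-fold below NK and 2.57-fold below B. Ap3b1, a subunit of the AP-3 adaptor that carries proteins to granules, read 104 on NKB, 474 on NK and 329 on B, at least 3.50-fold and at least 2.43-fold lower. Rab27a, which docks granules at the membrane, read 105 on NKB, 399 on NK and 64.0 on B, at least 2.95-fold below NK. Coro1a, an actin regulator of leukocytes, read 1242 on NKB, 2143 on NK and 4170.2 on B, 3.36-fold below B. Lamp1, the surface marker of degranulation, read 826 on NKB, 481 on NK and 496 on B, and Arl8b, a lysosome transport GTPase, read 188, 214 and 252, neither called.

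Among 11 death ligand and death receptor genes, 1 (Bid) was called lower in NKB against B and none higher, where 4.75% and 4.56% of all genes were. Against NK, Lta was called higher and Tnfrsf1a lower, where 5.97% and 5.10% of all genes were. Lymphotoxin alpha (Lta) read 390 on NKB, 92.5 on NK and 339 on B, at least 2.85-fold above NK. The tumour necrosis factor receptor gene Tnfrsf1a read 212 on NKB, 712 on NK and 45.1 on B, 3.37-fold below NK. Bid, a substrate of granzyme B, read 379 on NKB, 548 on NK and 761 on B, at the edge of a call against B (2.01-fold lower). Casp8, an initiator caspase of death receptor signalling, read 383 on NKB, 505 on NK and 341 on B, short of a call. The death ligand gene Tnfsf10, which encodes TRAIL, was under the detection level on all 3 arrays, at 26.8 on NKB, 72.5 on NK and 60.7 on B.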

How the data were processed

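Single-colour NimbleGen arrays measured RNA of NKB, NK and B cells, 1 array each. The deposited intensities are RMA summaries per transcript on a linear scale, per the submitters' processing notes, with no version given. Per the file headers, positions are on build MM9. The authors' log2 ratios are, per the file headers, plain ratios of 2 arrays with a fold of at least 2; they equal those recomputed from the arrays. The aligner and probe design are not given in the sources used here.

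Symbols were updated by gene identifier with a mouse table (GRCm38.p6, 39057 of 44170 transcripts matched), and 2284 transcripts without a symbol were left out. Transcripts of a symbol were averaged on the log2 scale with pandas 2.3.3 and numpy 2.4.6. Values were raised to the 95th percentile of 924 olfactory and vomeronasal genes, and a 2-fold difference was called. No p-value was possible. The steps were tested on data simulated from the B array, with little added noise and with changes placed only on genes above the level. This checks the calculation, and cannot show how often a 2-fold call is false on these arrays. Alternatives were other detection levels, other scalings, other ways to combine transcripts, symbols as deposited and the series' value table. Members, lists, motifs and alternatives were chosen with earlier results of these data known. Named genes are all members, list genes called in an NKB comparison, otherwise each list's 2 brightest on NKB, and the 5 genes nearest to Gzma. Some other list genes (Gzme, Gzmf, Gzmg, Gzmn, Mcpt1, Ctsg, Elane, Prtn3, Tnfsf10) and marker genes were named after their values were seen. Promoter windows were matched by symbol. One list gene is not reported here.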

Additional observations from a re-analysis of the deposited data

How the results depend on the processing

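With 10 members, the count higher in NKB than in B was 2. It was 1 with a level at the 99th percentile, 4 with the level at the array median and 4 with no level. With the arrays shifted to equal medians it was 3, with Prf1 added. Under the filter found in the authors' tables, chosen after seeing the data, it was 5. The moves with the level follow from its construction, since B is raised to it. Of 300 recomputed member differences 20 turned sign, 18 of them under 2-fold both ways. With 2-fold passed on one side these were Ctsw, NKB minus B, at -0.29 at the 99th percentile, and Gzmm, NK minus B, at 1.80 with no level. At the 99th percentile NKB minus B also turned for Gzmb (-0.83) and Prf1 (-0.53). All other turns were in Gzmc, Gzmk, Gzmm, Nkg7 or Fasl, in pairs with both arrays under the reported level. Over all comparisons and settings, 4 recomputed member counts (the 1, 4, 4 and 5 above) moved by over 1.5 times. The other 62 did not, the 3 above among them, which is at 1.5 times. Of the 300 differences, 290 stayed on their side of 2-fold and 7 newly passed it without a change of sign. Fasl, NK minus B, no longer passed it at the 99th percentile (0.19). Part of this stability was fixed in advance. The series' value table equals the arrays, so its values could not move. Symbols as deposited keep the same member transcripts, and other ways to combine transcripts leave members with 1 transcript unchanged, both apart from the level. Of the recomputed list counts 63 moved by over 1.5 times and 333 did not. Over all genes, NKB against B gave 1102 higher and 1148 lower, against 460 and 702 at the 99th percentile, 2073 and 2087 at the array median 3187 and 3131 with no level, and 1865 higher with the brightest transcript of each gene. NKB against NK gave 1442 and 1233, against 576 and 705, 2423 and 2402, 3670 and 3599, and 2218 higher under the same settings. NK against B gave 537 and 717, against 174 and 269, 1209 and 1224, 2006 and 1943, and 854 higher. Shifting arrays to equal medians gave a median of NK minus B over all genes of 0.07, against -0.12 without the shift. No paired analysis was possible because each population has 1 array.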

Other observations

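The authors' tables of differing transcripts carry a filter that their header does not name. Of 5937 transcripts at least 2-fold lower in NKB than in NK with the brighter of the pair at 100 or more, 4094 were listed and 1843 were not. Every listed transcript reached 100 on at least 2 of the 3 arrays, and every unlisted one on 1 array only. The tables of higher and lower transcripts in both comparisons followed the same rule, with 2759 and 1313 left out for NKB against B and 2802 higher ones for NKB against NK. Among the granule genes it leaves out of the table of lower transcripts both of Fasl, Nkg7 AK088383 and Gzmm, which were 13.1-fold, 7.48-fold, 64.4-fold and 2.38-fold lower in NKB than in NK as deposited.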
